A study of Mus musculus with 6 samples.

Results

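The genes described here are the G1 cyclins and their immediate partners: the D cyclins Ccnd1, Ccnd2 and Ccnd3, the E cyclins Ccne1 and Ccne2, the kinases Cdk2, Cdk4 and Cdk6, the retinoblastoma gene Rb1 and the transcription factor gene E2f1. They were taken by gene symbol from the deposited expression table, where all 10 were found among 27734 genes. RNA was sequenced from rib chondrocytes, the cartilage-forming cells, of E18.5 mouse embryos, collected without culture. There were 3 libraries from wild-type cells and 3 from Jab1flox/flox; Col2a1-Cre cells, in which Cre recombinase driven by the Col2a1 promoter of cartilage cells acts on floxed Jab1. The genotype of the wild-type cells is not given in more detail, and nothing states that the libraries are from different embryos, so p-values speak only of library-to-library spread, and that may be technical. Jab1 is encoded by Cops5, the subunit of the COP9 signalosome that removes Nedd8 from cullin ubiquitin ligases. The design asks how loss of Jab1 changes expression in chondrocytes.

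A cell leaves G1 when D cyclins bind Cdk4 or Cdk6 and these kinases begin to phosphorylate the Rb protein. Phosphorylated Rb releases E2F factors, which switch on the E cyclins and the genes of DNA replication, and cyclin E with Cdk2 completes the phosphorylation of Rb. In growth cartilage the D cyclins are part of how mitogenic signals set the pace of proliferation in the columnar zone, and cyclin proteins are turned over by cullin ligases.

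The values are FPKM, read fragments scaled by the length of the transcript and by the fragments mapped in the library. Where 3 values are given for a genotype, they stand in the order of its columns 0, 1 and 2 of the deposited table. Cops5, the targeted gene, was at 42.3, 39.8 and 40.1 FPKM in wild type, against 17.0, 18.0 and 17.2 FPKM in the mutants, so it was lower in every mutant library but not absent. All 11 chondrocyte markers that were measured were above 1 FPKM in every library, and Col9a1, Col11a1 and Snorc were not analysed here. Their summed level was 8680 to 10238 FPKM in wild type, against 5937 to 9922 FPKM in mutant libraries, where column 0 was at 9922 and columns 1 and 2 at 6137 and 5937 FPKM. The matrix genes Comp and Matn3 fell (limma adjusted p = 0.0239 and 0.0446), and 8 of the 11 markers had a log2 difference below 0, with a median of -0.44. Y-linked genes summed to 0.0281 to 0.639 FPKM in wild type, against 14.6 to 82.8 FPKM in mutant libraries, while Xist was at 63.1 to 65.9 FPKM in wild type, against 37.3, 0.0176 and 0.0244 FPKM in the mutants. Mutant column 0 thus held both Y-linked RNA and Xist. These genes differ between the sexes and separated all wild-type from all mutant libraries. In the genes below, a difference of genotype therefore cannot be told apart from a difference of sex. The sample title for wild-type column 0 is dated on day 30 and the other titles on day 24.

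Of the 10 genes, 1 passed the test of genotype. Ccnd3 fell in mutant cells by 0.44 on the log2 scale, Ccnd2 and Cdk6 were lower and Ccnd1 higher without passing, and the E cyclins, Cdk2, Cdk4, Rb1 and E2f1 had groups that overlapped. The test was limma's moderated linear model on log2(FPKM + 1), fitted to the 14012 genes that averaged 1 FPKM or more, two-sided, with Benjamini-Hochberg adjustment over all of them. The words rose and fell are kept for an adjusted p under 0.05, and differences on this scale understate the change of low genes. All 10 genes passed the filter on low values. Across all genes tested, 6.07% were called in either direction and 2.59% were called lower in mutant cells, against 1 of 10 here. No member rose in limma (3.48% of all genes did), and by unadjusted p under 0.05, which 24.7% of all genes passed, 2 were higher and 3 were lower. Groups did not overlap for 4 members, Ccnd1 higher and Ccnd2, Ccnd3 and Cdk6 lower, beside 32.2% of all genes tested (16.3% higher and 15.9% lower). The median log2 difference was -0.07 over the 10 genes and 0.00 over all genes. In bulk samples, fewer cells of a type and less RNA per cell cannot be told apart.

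**Figure D1:**
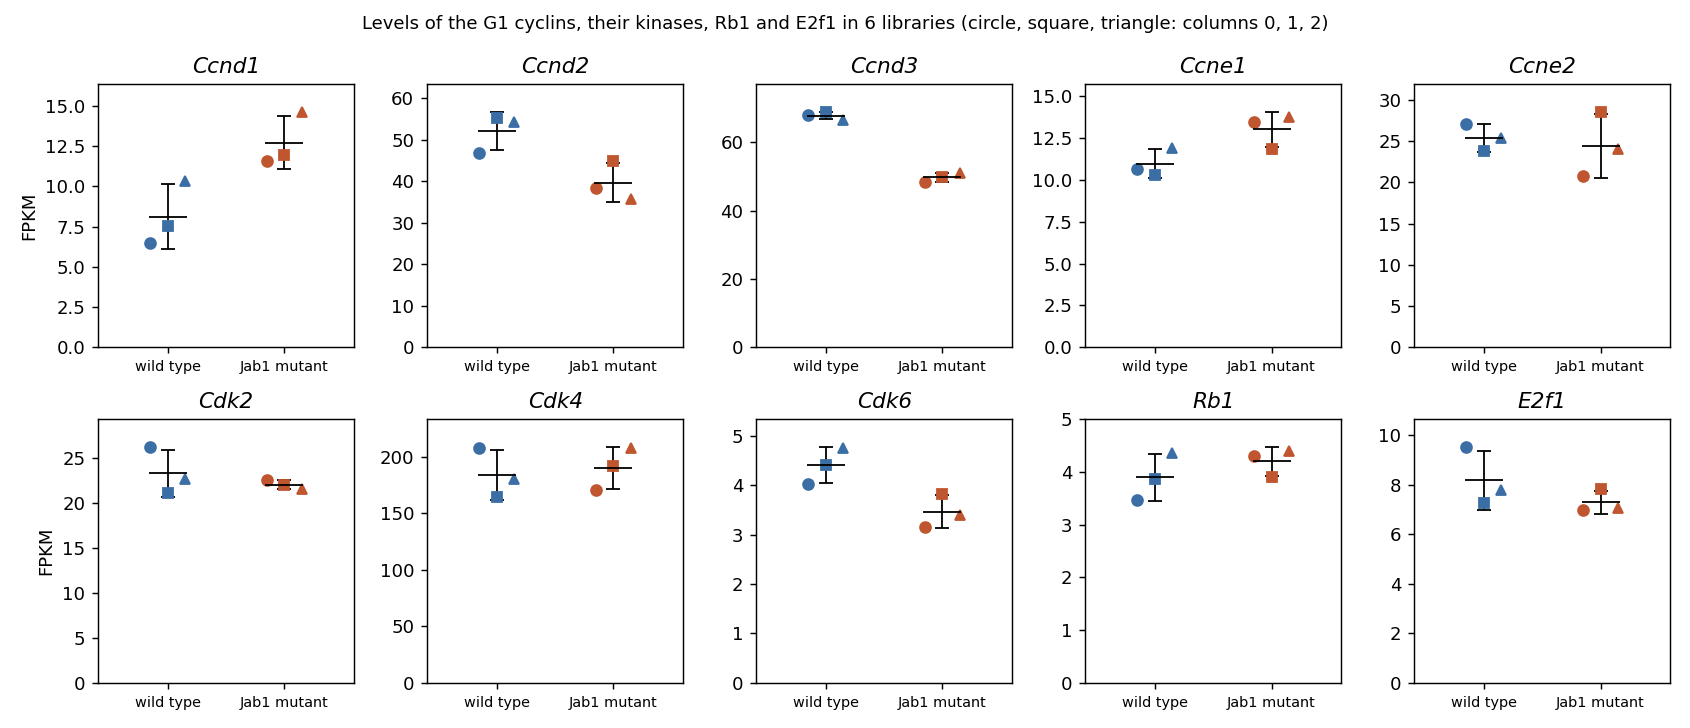
FPKM (y axis, from 0) of each gene in the wild-type and mutant libraries; points are libraries, horizontal bars means and whiskers SD over 3 libraries. The Ccnd3 groups lie apart with little spread (48.4 to 51.0 FPKM in mutant against 66.6 to 68.7 FPKM in wild type), while the Cdk4, Cdk2, Ccne2, Rb1 and E2f1 groups overlap.

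Sequences upstream of the start sites are shown for Ccnd3, the gene that passed the test, and for the only stretch with an E2F word in the promoter windows held for these genes. Promoter windows from RefSeq on build GRCm38.p6, a patch release of the assembly also called mm10, run from 250 bases before to 50 after an annotated start, and were held for 6 of the 10 genes: Ccnd3 with 2 starts, and Ccne1, Cdk2, Cdk4, Cdk6 and E2f1 with 1 each. Ccnd1, Ccnd2, Ccne2 and Rb1 had no entry. The 250 bases before the E2f1 start (154569426) and before the Cdk6 start (3343893) lie within these genes, by the gene coordinates given below. The sequence before the 5′ ends of E2f1 and Cdk6 was thus not searched, and a lack of E2F words there is not shown. The first Ccnd3 start is at the 5′ end of the gene and the second is inside it. Both are given below 5′ to 3′ on the plus strand without the bases after the start, as chr17:47504801-47505050 and chr17:47593217-47593466, with GC boxes (GGGCGG, read on either strand) and CCAAT boxes (CCAAT, either strand) in capitals.
Ccnd3, first start: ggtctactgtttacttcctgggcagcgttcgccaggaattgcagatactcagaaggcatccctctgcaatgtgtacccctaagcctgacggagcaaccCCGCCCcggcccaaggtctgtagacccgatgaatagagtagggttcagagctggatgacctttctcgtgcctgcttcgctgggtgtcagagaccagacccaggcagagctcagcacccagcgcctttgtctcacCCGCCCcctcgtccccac
Ccnd3, second start: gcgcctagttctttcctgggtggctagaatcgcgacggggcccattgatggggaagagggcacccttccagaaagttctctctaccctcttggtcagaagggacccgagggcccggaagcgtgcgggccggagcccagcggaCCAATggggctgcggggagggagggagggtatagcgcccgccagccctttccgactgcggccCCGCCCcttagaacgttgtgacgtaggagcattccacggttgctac
The sequence before the first start holds 2 GC boxes on the reverse strand and no CCAAT box, and that before the second holds 1 GC box and 1 CCAAT box 108 bases before the start. The FPKM is a value for the whole gene, so it does not say which start the transcripts used. The E2F words searched, on both strands, were TTTCCCGC, TTTCGCGC, TTTGCCGC and TTTGGCGC; in these 7 windows no word of one motif overlapped one of another. Of the 7 windows, only that of Cdk2 held an E2F word: TTTCCCGC on the strand opposite to the gene, whose reverse complement is in capitals in the 30 bases given 5′ to 3′ along the gene, on the minus strand of chr10:128705173-128705202.
Cdk2, upstream stretch: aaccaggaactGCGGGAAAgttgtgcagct
An E2F word was in 2.26% of all 32851 promoter windows, a GC box in 35.7% and CCAAT in 37.4%. A GC box was in every window of these genes other than that of Cdk6, which held none of the motifs. A match describes letters only and says nothing of binding.

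The D cyclins, which receive the mitogenic signal, differed in the sign of their difference, and of them Ccnd3 passed the test. Ccnd3 (chromosome 17, 47505051 to 47599691, mm10, plus strand), the D cyclin best known from the expansion of blood lineages, was at 67.9, 68.7 and 66.6 FPKM in wild type, against 48.4, 49.8 and 51.0 FPKM in the mutants. Every mutant library was below every wild-type library, and the libraries of a group differed by less than 3 FPKM. The means were 67.7 ± 1.07 FPKM and 49.7 ± 1.32 FPKM (SD, n = 3 each), a log2 difference of -0.44 (SE 0.0572, 95% interval -0.58 to -0.30, limma adjusted p = 0.0184). This call was lost without any single library other than mutant column 0: leaving out wild-type column 0, 1 or 2 gave a limma adjusted p of 0.0723, 0.0800 or 0.0833, and leaving out mutant column 1 or 2 gave 0.0617 or 0.0688, with a log2 difference of -0.46 to -0.42. Without wild-type column 0 the dated titles share a single day. In a separate limma fit of all libraries that takes the Y-linked level into account, the log2 difference was -0.52 (adjusted p = 0.145). That covariate was higher in every mutant than in any wild-type library. It thus overlaps with genotype, here and for the genes below, and a call lost with it cannot be read as an effect of either alone.

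Ccnd2 (chromosome 6, 127125162 to 127152193, minus strand), a D cyclin induced by many growth signals, was at 46.9, 55.2 and 54.3 FPKM in wild type, against 38.3, 44.8 and 35.8 FPKM in the mutants. The groups did not overlap, but mutant column 1 came within about 2 FPKM of wild-type column 0. The log2 difference of -0.39 (95% interval -0.66 to -0.11) did not pass (limma adjusted p = 0.107). Ccnd1 (chromosome 7, 144929931 to 144939925, minus strand), the D cyclin most directly tied to growth factor signalling, was at 6.46, 7.56 and 10.3 FPKM in wild type, against 11.6, 11.9 and 14.6 FPKM in the mutants. All mutant libraries were above all wild-type libraries, with wild-type column 2 nearest to them. Its log2 difference of 0.60 (95% interval 0.17 to 1.04) had the largest size of the 10 genes in this fit and also the widest interval, and did not pass (limma adjusted p = 0.109). With the Y-linked covariate it was 0.297 (adjusted p = 0.766), smaller in size than those of Ccne2, Cdk6, Ccnd2, Ccnd3, Ccne1 and, by little, Cdk4 (-0.299).

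Since FPKM is scaled by transcript length, the D cyclins can be set against each other within a library. Ccnd3 was the most abundant and Ccnd1 the least in all 6 libraries. The summed D cyclin level was 121, 131 and 131 FPKM in wild type, against 98.2, 107 and 101 FPKM in the mutants, so the sum was lower in each mutant library. Ccnd1 made up 5.33, 5.75 and 7.87% of that sum in wild-type and 11.8, 11.2 and 14.4% in the mutants. Its mean share was 6.32 ± 1.36% against 12.5 ± 1.71% (SD, n = 3 each), a difference of 6.14 points (two-sided exact permutation p = 0.1, the smallest that 3 libraries against 3 can give). The share of Ccnd3 was 53.0 ± 2.71% in wild type and 48.8 ± 1.84% in mutant cells (exact permutation p = 0.1), with groups that lay next to each other: the lowest wild-type library was at 50.8% and the highest mutant library at 50.3%. The share of Ccnd2 was 40.7 ± 1.77% against 38.8 ± 3.40% and its groups overlapped (exact permutation p = 0.7). These 3 shares come from the same sum and are not independent. With the shares of Cdk6 and Ccne2 given below, 5 shares were compared. The smallest p the design allows is above 0.05 without adjustment, so no adjusted value is given.

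**Figure D2:**
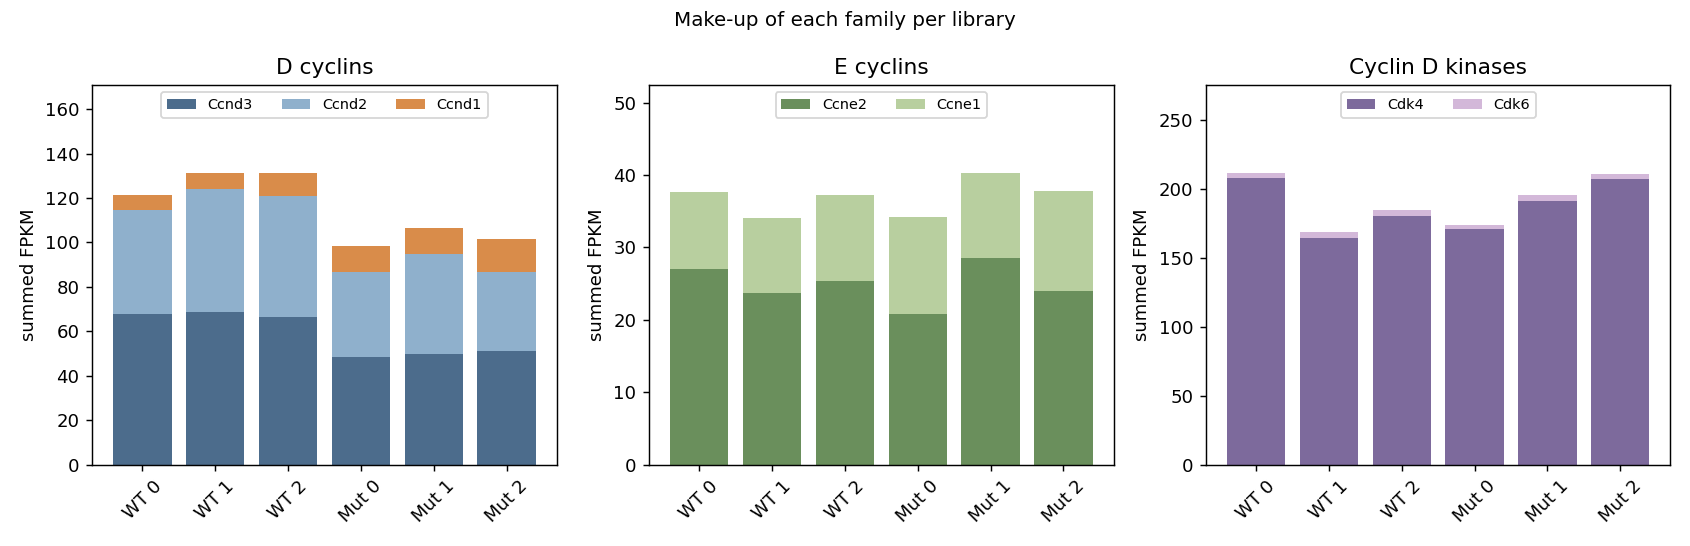
Summed FPKM (y axis, from 0) of the D cyclins, the E cyclins and the cyclin D kinases in each library, stacked by gene. The D cyclin bars are shorter in the 3 mutant libraries (98.2 to 107 FPKM against 121 to 131 FPKM) with a taller Ccnd1 segment, and the kinase bars are almost wholly Cdk4.

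Cdk4 and Cdk6 are the catalytic partners of the D cyclins. Cdk4 (chromosome 10, 127063534 to 127067920, plus strand) had the highest level of the 10 genes, higher than 97.6% of all genes tested by mean FPKM. It was at 208, 164 and 180.3 FPKM in wild type, against 171, 192 and 208 FPKM in the mutants. The groups covered nearly the same range, and the log2 difference was 0.05 (95% interval -0.25 to 0.35, limma adjusted p = 0.851). Its sign turned under quantile normalization, with the Y-linked covariate, and when wild-type column 1 or mutant column 2 was left out. Cdk6 (chromosome 5, 3341485 to 3531008, plus strand) had the lowest mean of the 10 over the 6 libraries, although Rb1 was below it in each wild-type library. It was at 4.03, 4.41 and 4.76 FPKM in wild type, against 3.16, 3.83 and 3.40 FPKM in the mutants. Its groups did not overlap, yet the log2 difference of -0.28 (95% interval -0.52 to -0.03) did not pass (limma adjusted p = 0.160). Cdk6 made up 2.36 ± 0.401% of the Cdk4 and Cdk6 sum in wild type and 1.80 ± 0.174% in mutant cells (SD, n = 3 each; exact permutation p = 0.2). Cdk4 thus exceeded Cdk6 by a factor of 37.2 to 61.0 in the 6 libraries.

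The E cyclins act after the D cyclins, with Cdk2. Ccne1 (chromosome 7, 38097984 to 38107534, minus strand) was at 10.6, 10.3 and 11.9 FPKM in wild type, against 13.4, 11.8 and 13.8 FPKM in the mutants. Mutant column 1 lay just below wild-type column 2, and the log2 difference of 0.23 (95% interval 0.01 to 0.45) did not pass (limma adjusted p = 0.185). Ccne2 (chromosome 4, 11191351 to 11204779, plus strand) was at 27.0, 23.7 and 25.3 FPKM in wild type, against 20.8, 28.5 and 24.0 FPKM in the mutants. The mutant libraries held both the lowest and the highest value, and the log2 difference was -0.06 (95% interval -0.37 to 0.25, limma adjusted p = 0.796). Ccne2 was the more abundant E cyclin in every library, with 69.9 ± 1.91% of their sum in wild type and 65.0 ± 5.14% in mutant cells (SD, n = 3 each; exact permutation p = 0.3). Cdk2 (chromosome 10, 128697939 to 128705031, minus strand) was at 26.2, 21.1 and 22.7 FPKM in wild type, against 22.6, 22.0 and 21.5 FPKM in the mutants. The mutant values lay inside the wild-type range, and the log2 difference was -0.07 (95% interval -0.30 to 0.15, limma adjusted p = 0.661).

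Rb1 and E2f1 encode the brake and the factor it holds. Rb1 (chromosome 14, 73183673 to 73325822, minus strand) was at 3.48, 3.86 and 4.36 FPKM in wild type, against 4.30, 3.90 and 4.40 FPKM in the mutants, with overlapping groups. Its log2 difference was 0.09 (95% interval -0.15 to 0.33, limma adjusted p = 0.609). E2f1 (chromosome 2, 154559407 to 154569892, minus strand) was at 9.51, 7.24 and 7.79 FPKM in wild type, against 6.98, 7.82 and 7.06 FPKM in the mutants. Wild-type column 0 stood above the other libraries, which overlapped, and the log2 difference was -0.14 (95% interval -0.41 to 0.13, limma adjusted p = 0.479). Without that library it was -0.0404, and that of Rb1 was 0.0268. These intervals allow changes of either sign for Cdk2, Cdk4, Ccne2, Rb1 and E2f1, so a lack of change is not shown.

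**Figure D3:**
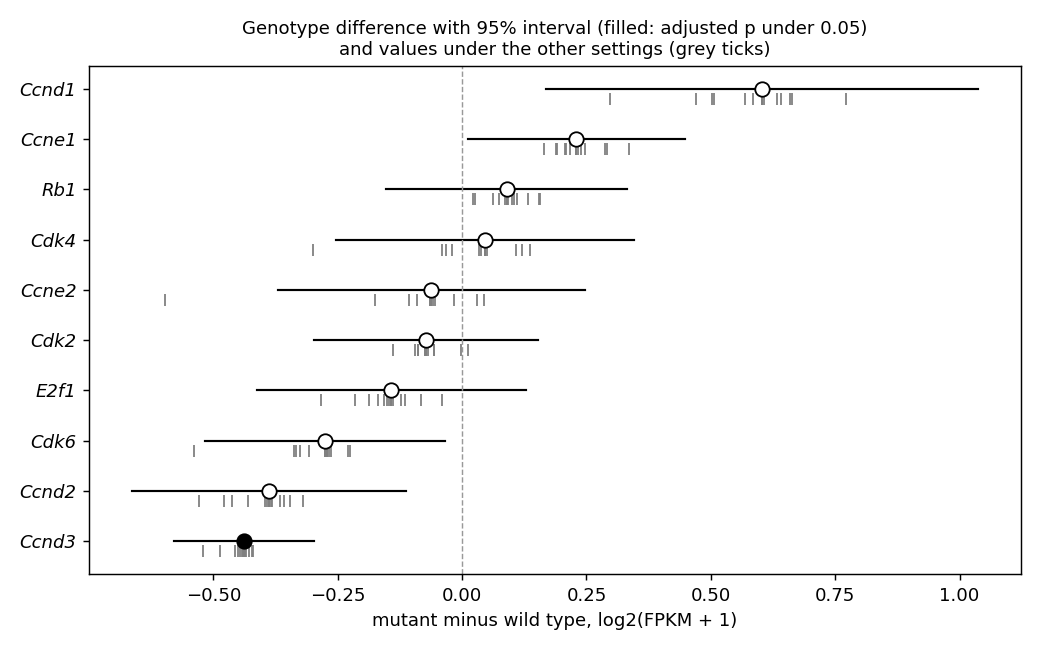
Difference of log2(FPKM + 1), mutant minus wild type (x axis), for each gene, as a point with its 95% interval; grey ticks are the values under the other settings. Ccnd3 alone is filled (adjusted p under 0.05), at -0.44, and Ccnd1 lies farthest from 0 on the other side, at 0.60.

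By mean FPKM over the 6 libraries the order was Cdk4 (187), Ccnd3 (58.7), Ccnd2 (45.9), Ccne2 (24.9), Cdk2 (22.7), Ccne1 (12.0), Ccnd1 (10.4), E2f1 (7.73), Rb1 (4.05) and Cdk6 (3.93). Neighbours whose libraries overlapped in wild type were Ccne2 with Cdk2, Ccne1 with Ccnd1, Ccnd1 with E2f1, and Rb1 with Cdk6. In mutant cells Ccne2 with Cdk2 and Ccne1 with Ccnd1 overlapped, while Ccnd1 was above E2f1 and Rb1 above Cdk6 in every library. Of the 10 genes, 8 share exonic bases with a gene on the opposite strand, and whether the authors' quantification used strand is not stated. Ccnd3 shares 361 bases with Bysl, which was at 6.64 to 9.15 FPKM in wild type, against 8.58 to 10.2 FPKM in mutant libraries, and Cdk4 shares 641 bases with Tspan31, at 65.1 to 72.0 FPKM against 59.1 to 66.3 FPKM. Ccnd1 shares 1100 bases with LTO1, at 5.38 to 7.04 FPKM against 4.71 to 5.25 FPKM, a level of the same order as its own. The tested genes whose centred log2 values lay nearest to those of Ccnd3 over the 6 libraries were Pacsin3, Tpd52-ps and Armcx2, at a root mean square distance of 0.0219, 0.0339 and 0.0369. Those nearest to Cdk4 were Twf2, Psmb1 and Bola3, at 0.0268, 0.0273 and 0.0306.

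Markers of blood cells differed between the groups alongside Ccnd3. Of 6 erythroid markers, the 5 that were tested all fell, among them the globin gene Hbb-bs, from 143 ± 12.8 to 20.0 ± 13.6 FPKM (SD, n = 3 each; limma adjusted p = 0.0226). The 6 markers summed to 196 to 221 FPKM in wild type, against 14.7 to 49.3 FPKM in mutant libraries, and the membrane marker Slc4a1 stayed under 0.1 FPKM in all. Alas2, among the 5 that fell, was at 1.97 ± 0.209 against 0.137 ± 0.0788 FPKM. It passed the filter on low values only through its wild-type level. Of 6 neutrophil markers, S100a8 and S100a9 fell, and the list summed to 64.9 to 189.8 FPKM against 0.864 to 6.93 FPKM, with Ly6g listed at 0 in all mutant libraries. Of 8 skeletal muscle markers, Tnnt3, a fast troponin gene, fell (162, 137 and 123 FPKM in wild type, against 41.6, 63.5 and 50.3 FPKM in the mutants, adjusted p = 0.0171) and made up most of the list's sum of 142 to 171 FPKM against 51.0 to 74.5 FPKM. The other 7 summed to 8.94 to 19.5 FPKM against 2.91 to 10.9 FPKM, which overlap. Of the 8 genes 5 were tested, all with a log2 difference below 0, and only Tnnt3 was called. Endothelial markers summed to 2.49 to 4.34 FPKM against 1.37 to 9.97 FPKM, and macrophage and osteoclast markers to 62.8 to 97.3 FPKM against 79.2 to 279 FPKM. Most of the latter sum was Ctsk, at 56.8 ± 10.1 against 113 ± 64.6 FPKM, while Ptprc was lower, at 1.88 ± 0.765 against 0.373 ± 0.220 FPKM. Of the 6 tested genes of that list 3 had a log2 difference above 0 and 3 below, and none was called. Fibroblast and perichondrium markers summed to 1481 to 1753 FPKM against 1004 to 1548 FPKM. Of the last list the proteoglycan genes Dcn and Lum fell: Dcn was at 504 ± 30.0 against 341 ± 31.8 FPKM (adjusted p = 0.0400) and Lum at 625 ± 34.4 against 343 ± 66.5 FPKM (adjusted p = 0.0361). Markers of hypertrophic chondrocytes summed to 471, 675 and 709 FPKM in wild type, against 280, 803 and 931 FPKM in the mutants. Of these 5 genes 4 had a log2 difference below 0 and 1 above, and none was called. Osteoblast markers summed to 103 to 332 FPKM in wild type, against 51.7 to 248 FPKM in mutant libraries, and none was called. The part of these cells in the Ccnd3 difference was not tested.

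**Figure D4:**
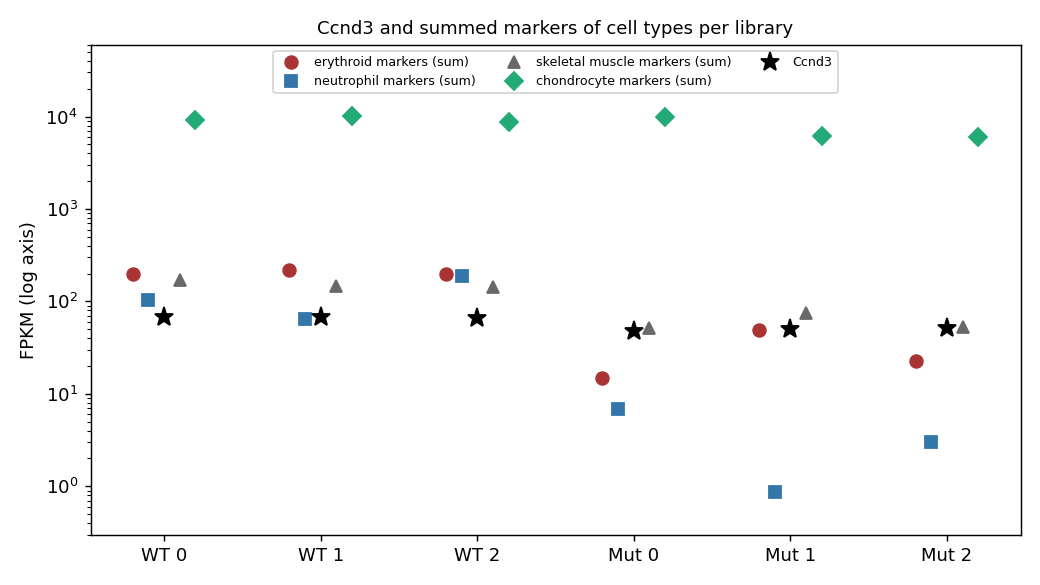
Ccnd3 and the summed FPKM of marker lists (y axis, logarithmic) in each library. Erythroid and neutrophil sums are lower in all 3 mutant libraries than in any wild-type library (erythroid 14.7 to 49.3 FPKM against 196 to 221 FPKM), and so is Ccnd3; the muscle sum is lower too but is mostly Tnnt3.

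The surrounding pathway was read from 8 lists. Of 125 tested genes 7 were called, 6 higher and 1 lower, a share near the 6.07% called over all genes. Among 11 pocket proteins, E2F and DP factors none passed in limma, and by unadjusted p under 0.05 there were 3 higher and 0 lower. Rbl2, the p130 relative of Rb, was at 7.45, 7.46 and 7.37 FPKM in wild type, against 9.03, 8.69 and 8.58 FPKM in the mutants and did not pass (adjusted p = 0.0924). The repressor E2f6 was at 9.06 ± 0.985 against 11.1 ± 0.542 FPKM (adjusted p = 0.142), and Tfdp1, the DNA-binding partner of E2F, at 38.2 ± 3.26 against 37.2 ± 1.38 FPKM (adjusted p = 0.818).

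Of the inhibitors that bind these kinases, 6 of 7 were tested and 1 rose. Cdkn1a, which encodes p21, was at 14.4, 25.3 and 14.9 FPKM in wild type, against 70.1, 56.1 and 68.8 FPKM in the mutants (log2 difference 1.82, limma adjusted p = 0.0171). Leaving out wild-type column 0 or 2 gave an adjusted p of 0.0715 or 0.0678, and mutant column 2, 0.0755. With the Y-linked covariate its log2 difference was 2.19 and did not pass (adjusted p = 0.166). Nor did it pass in a limma fit with column number as a further term, the replicate block (adjusted p = 0.113). Set against the summed D cyclins of the same library, Cdkn1a came to 0.142 ± 0.0444 FPKM per D cyclin FPKM in wild type and 0.640 ± 0.0996 in mutant cells. Cdkn1c, the p57 gene of maturing chondrocytes, was at 328 ± 41.1 against 215 ± 27.0 FPKM (adjusted p = 0.0643), and Cdkn2b, an inhibitor of Cdk4 and Cdk6, at 0.649 ± 0.249 against 2.32 ± 0.628 FPKM (adjusted p = 0.0531). Cdkn1b, which encodes p27, was at 24.2 ± 3.24 against 19.9 ± 4.48 FPKM (adjusted p = 0.393). Among 10 genes of the CDK-activating kinase, its counteracting kinases and phosphatases and the Cdk4 chaperone none passed in limma, and by unadjusted p under 0.05 there were 0 higher and 1 lower. The lower one, Pkmyt1, was at 9.44 ± 0.960 against 7.60 ± 0.808 FPKM (adjusted p = 0.183). The chaperone gene Cdc37 was at 39.1 ± 5.01 against 45.1 ± 1.15 FPKM (adjusted p = 0.285).

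Of 15 genes of cyclin D and E turnover 1 rose: Fbxw7, the receptor that brings cyclin E to its SCF ligase, was at 11.1, 12.5 and 10.9 FPKM in wild type, against 17.6, 16.2 and 20.2 FPKM in the mutants. Its limma adjusted p was 0.0327, against 0.0560 to 0.117 when any of the 6 libraries was left out. It was 0.308 with the Y-linked covariate, 0.0547 without the filter on low values and 0.154 with the replicate block. Btrc, another substrate receptor, was at 7.08 ± 0.681 against 5.45 ± 0.457 FPKM (adjusted p = 0.109). Of 17 tested inputs to cyclin D transcription, Fosl1, an AP-1 subunit, rose from 0.648 ± 0.489 to 2.91 ± 0.238 FPKM (limma adjusted p = 0.0381), and Gli1, an effector of Hedgehog signalling, fell from 13.1 ± 2.65 to 3.12 ± 0.488 FPKM (adjusted p = 0.0071). The Fosl1 call held without wild-type column 1 and was lost without each of the other libraries, with adjusted p of 0.0772 to 0.120. It was also lost with the Y-linked covariate (limma adjusted p = 0.244), without the filter on low values (0.0632) and with the replicate block (0.142). Fosl1 averaged under 1 FPKM in wild type, so it was tested only because of its level in the mutants. The Gli1 call held without each library and was lost with the Y-linked covariate (log2 difference -1.41, adjusted p = 0.172). The parathyroid hormone receptor gene Pth1r was at 89.9 ± 4.99 against 88.4 ± 8.20 FPKM (adjusted p = 0.885) and Ctnnb1, which encodes beta-catenin, at 319.98 ± 8.21 against 340.4 ± 21.5 FPKM (adjusted p = 0.543).

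Downstream, none of 32 E2F target genes of DNA replication passed in limma, and by unadjusted p under 0.05 there were 2 higher and 0 lower, a smaller share than the 24.7% of all genes. Their median log2 difference was 0.08, with 24 above and 8 below 0, beside 6926 above and 7086 below over all genes. The higher ones encode subunits of the replicative helicase: Mcm4 was at 25.0 ± 1.53 against 31.0 ± 1.64 FPKM (adjusted p = 0.0780) and Mcm6 at 67.3 ± 8.58 against 86.5 ± 5.53 FPKM (adjusted p = 0.117). None of 15 S, G2 and M cyclins and kinases passed in limma, and 0 did so at an unadjusted p under 0.05. That list had a median of -0.13, with 4 above and 11 below 0. Mki67, the gene of the proliferation marker Ki-67, was at 44.9, 30.2 and 37.7 FPKM in wild type, against 40.3, 25.7 and 22.8 FPKM in the mutants, and Cdk1, the mitotic kinase, at 72.9 ± 15.5 against 65.7 ± 6.44 FPKM. Of 19 other cyclins and CDKs 3 rose. Ccng1, an atypical cyclin and p53 target, rose from 85.4 ± 2.11 to 174 ± 20.2 FPKM (adjusted p = 0.0087) and held without each library, but with the Y-linked covariate its log2 difference went from 1.01 to 0.60 and did not pass (adjusted p = 0.173). Cdk14, a kinase named here after its values were seen, rose from 4.89 ± 0.429 to 7.57 ± 0.403 FPKM (adjusted p = 0.0268). With a library left out it held only without mutant column 0, with adjusted p of 0.0696 to 0.0984 without the others, and with the Y-linked covariate it did not pass (adjusted p = 0.380). Cdk8, a Mediator kinase, was listed at 0 in all wild-type and at 6.73, 8.13 and 7.50 FPKM in the mutants, and an exact 0 in such a table can be a failed estimate. Without it 6 genes of the 8 lists were called.

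**Figure D5:**
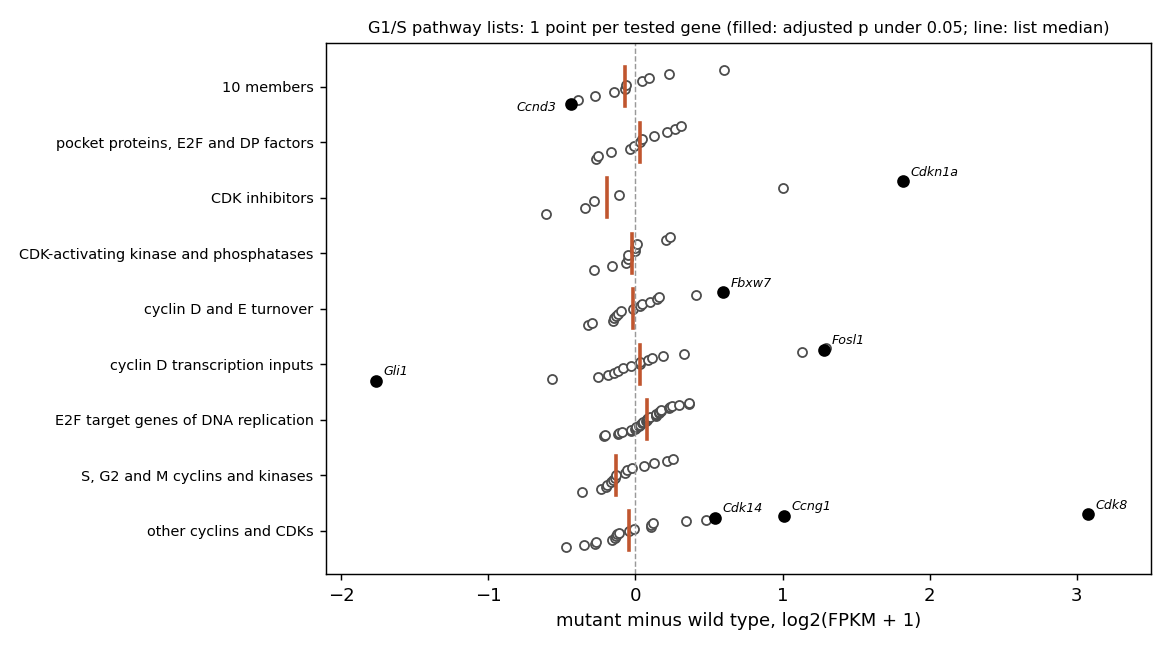
Difference of log2(FPKM + 1), mutant minus wild type (x axis), for each tested gene of the 10 members and the 8 pathway lists; filled points have an adjusted p under 0.05 and vertical lines are list medians. The list medians lie between -0.19 and 0.08, and the called genes are single points away from their lists; Cdk8 is listed at 0 in all wild-type libraries.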

How the data were processed

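The deposited table gives FPKM, as computed by the authors, for 27734 genes in 6 libraries. Per the labels' protocols, the libraries were stranded total RNA depleted of ribosomal RNA and sequenced as single-end reads; STAR, Cufflinks, Cuffdiff and mm10 are named in the submitters' processing notes, and versions are not given in the sources used here. Of the columns, 4 matched a sample by group and number and 2, numbered 2 where the labels have 3, matched their group only. Library totals were 571180 to 631534 FPKM. Read counts were not used here, and counting intervals cannot be given. Values of many genes stood in fixed ratios, rounded to 3 decimals, to wild-type column 0. The commonest ratios were 0.863 and 0.838 in wild-type columns 1 and 2, and 1.013, 0.695 and 0.880 in mutant columns 0, 1 and 2. Each was shared by 78 to 111 genes. Ratios were taken over all genes detected in both columns, and the level of the genes sharing a ratio was not checked. If their values are single reads, the ratios would be inverse relative depths.

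Genes averaging 1 FPKM or more were tested on the log2(FPKM + 1) scale by limma 3.58.1 (R 4.3.3; eBayes with trend=TRUE) with genotype as the only term, and the script was tested on simulated data. Adjusted p-values named for genes come from this fit unless another setting is named. Shares within a family were compared by a two-sided exact permutation test (scipy 1.17.1). Gene coordinates and overlaps are from GENCODE M21 (mm10) and promoters from RefSeq (GRCm38.p6). The members and gene lists were chosen with earlier results of these data known. Named genes were the 10 members, Cops5, the 2 genes of smallest p and the 2 of highest mean in each of 8 pathway lists (some of these are left out of the text) with Cdkn1a, Cdkn1b and Cdkn1c, markers of other cell types, and the 3 genes nearest in pattern to the member of smallest p and of highest mean. Alternatives were pseudocounts of 0.1 and 0.5, no filter, a mean of at least 5 FPKM, median-of-ratios scaling, quantile normalization, library weights, a replicate block, the mean level of 4 Y-linked genes as a covariate, and each library left out.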

Additional observations from a re-analysis of the deposited data

How the results depend on the processing

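Under 15 other settings the log2 difference of Ccnd3 stayed between -0.52 and -0.42 and passed in 8. The number of members falling was 0 with the replicate block, 0 with the Y-linked covariate and 0 to 1 with a library left out; no member rose in any setting. Genes called over the whole table, 850 in the fit reported, numbered 461 without the filter, 1488 with library weights, 60 with the replicate block, 236 with the Y-linked covariate and 174 to 666 with a library left out. Genes called in the pathway lists, 7 in the fit reported, numbered 4, 11, 2 and 3 in the same settings and 3 to 5 with a library left out. The sign of Cdk4 turned under quantile normalization (-0.0413), with the Y-linked covariate (-0.30) and without mutant column 2 or wild-type column 1, and ranged from -0.0320 to 0.137 with a library left out. Ccne2 turned with library weights (0.0303) and without mutant column 0, and Cdk2 without wild-type column 0; with a library left out Ccne2 ranged from -0.176 to 0.0445 and Cdk2 from -0.140 to 0.0111. The Y-linked covariate also moved Ccne2 from -0.06 to -0.60, Cdk6 from -0.28 to -0.54, Ccnd1 from 0.60 to 0.30 and E2f1 from -0.14 to -0.28; none of these passed. The cause was not tested. Fits with a library left out have fewer samples, and the Y-linked covariate was higher in every mutant than in any wild-type library, so it overlaps with genotype. The 4 planned family shares kept their direction on a log2 scale and with each library left out, but with a library left out the difference ran from -3.53 to -0.140 points for Ccnd2 and from -7.72 to -2.73 points for Ccne2. Cdk6 and Rb1 had no value at a minimum mean of 5 FPKM.

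No sign of pairing by column number was seen: deviations of same-numbered columns from their group means correlated at -0.03, -0.04 and -0.02, and 0 of 6 libraries correlated best with its own number. With 3 libraries in each group, and the columns numbered 2 matched to their group only, this cannot show that the libraries were unpaired. With the replicate block Ccnd3 had an adjusted p of 0.131 and Ccng1 of 0.0741.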
